A study of Mus musculus with 4 samples.

Results

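The cytokine, chemokine and tumour necrosis factor (TNF) genes of mouse hippocampus were read by 136 probe sets of 111 genes, out of 12488 probe sets in all. They were taken by gene symbol: every probe set annotated to exactly 1 symbol that begins with Il and a digit, Ccl, Ccr and a digit, Cxcl, Cxcr, Tnf, Csf and a digit, or Lif, apart from 1 gene not analysed here. Of the 136, 2 are controls of the array design, which leaves 134 probe sets among 12422 that are not controls, and these 134 cover the same 111 genes. Total RNA of 4 hippocampus samples was hybridised to 1 Affymetrix Murine Genome array each. The labels place all 4 samples in 1 group and give no strain, sex, age or treatment, and they leave unsaid if each sample was a separate animal. Samples are numbered 1 to 4 by name only. With 4 arrays, precision is limited throughout. Sample 4 stood apart from the rest. Its log2 signals over the analysed probe sets correlated with those of samples 1 to 3 at 0.907 to 0.925, against 0.941 to 0.949 among samples 1 to 3 (Pearson's r). The array design reads 5 control transcripts at both ends, and the 3' signal divided by the 5' signal, a measure of how complete the RNA is, was highest in sample 4 for each. It was 1.41, 2.40, 3.36 and 7.20 for the transferrin receptor across samples 1 to 4 and 1.84, 1.64, 1.51 and 2.03 for beta-actin. Its part in the values of sample 4 given here was not tested.

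Cytokines are small secreted proteins by which cells, above all those of the immune system, act on one another. Interleukins and colony-stimulating factors act through receptors that pair a ligand-binding chain with a signalling chain, and most of these signal through JAK kinases and STAT factors. Chemokines direct cell migration through receptors coupled to G proteins. Ligands and receptors of the TNF family signal through TRAF adaptors, NF-kappaB and death domains. In healthy brain most inflammatory cytokines are kept low and are induced in microglia and astrocytes by injury or infection, while a few members, such as Cxcl12, act in the development and upkeep of the tissue.

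Signals are given in quantile normalized array units. The floor was the 25th percentile of all normalized values, 27.7 units. A probe set was analysed where its mean over the 4 samples exceeded the median of all means, 104 units. A signal near the floor cannot be told from background here, and the signals of different probe sets are not compared with one another as levels.

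The promoters of 5 genes, chosen after their sequences and signals had been seen, are shown as examples of differing CG content. Of these, 3 are of analysed genes and 2 of genes under the floor. They are the 250 bases before the RefSeq gene start in build GRCm38.p6, written 5' to 3' along the gene. They do not span the family, whose counts ran from 0 to 45 CG. Nor do they stand for their class: of 19 promoters under the floor, 8 held TATAAA and 4 held at least 10 CG. CG dinucleotides, and TATAAA on either strand, are in capitals. The CXC chemokine gene Cxcl12 and the shared receptor chain gene Il6st were analysed and have many CG. The cytokine gene Il18 was analysed too, but has 1 CG and a TATAAA, and so lies closer to the genes under the floor shown here. The chemokine gene Cxcl9 and the fever cytokine gene Il1b were under the floor on all 4 arrays. The windows are Cxcl12 at chr6:117168285-117168534 (plus strand, 14 CG), Il6st at chr13:112463820-112464069 (plus strand, 26 CG), Il18 at chr9:50554450-50554699 (plus strand, 1 CG), Cxcl9 at chr5:92328080-92328329 (minus strand, 3 CG) and Il1b at chr2:129371140-129371389 (minus strand, 2 CG).
Cxcl12: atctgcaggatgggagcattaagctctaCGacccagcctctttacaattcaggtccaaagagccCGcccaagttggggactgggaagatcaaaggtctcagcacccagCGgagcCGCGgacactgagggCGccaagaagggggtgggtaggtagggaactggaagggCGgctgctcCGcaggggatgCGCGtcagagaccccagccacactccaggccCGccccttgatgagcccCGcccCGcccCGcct
Il6st: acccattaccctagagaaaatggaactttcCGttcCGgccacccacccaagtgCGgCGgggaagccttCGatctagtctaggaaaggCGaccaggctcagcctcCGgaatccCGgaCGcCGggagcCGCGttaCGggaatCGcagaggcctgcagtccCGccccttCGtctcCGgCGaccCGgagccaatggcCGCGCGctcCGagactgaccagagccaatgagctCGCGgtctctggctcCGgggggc
Il18: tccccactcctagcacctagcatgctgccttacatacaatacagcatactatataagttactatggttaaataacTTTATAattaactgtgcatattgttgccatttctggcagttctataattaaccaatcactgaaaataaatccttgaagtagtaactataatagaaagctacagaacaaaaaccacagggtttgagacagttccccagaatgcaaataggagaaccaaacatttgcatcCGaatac
Cxcl9: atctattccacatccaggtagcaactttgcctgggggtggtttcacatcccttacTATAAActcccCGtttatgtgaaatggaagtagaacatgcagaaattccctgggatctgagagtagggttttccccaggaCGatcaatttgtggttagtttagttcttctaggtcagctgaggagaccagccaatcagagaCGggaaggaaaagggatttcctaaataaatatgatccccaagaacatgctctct
Il1b: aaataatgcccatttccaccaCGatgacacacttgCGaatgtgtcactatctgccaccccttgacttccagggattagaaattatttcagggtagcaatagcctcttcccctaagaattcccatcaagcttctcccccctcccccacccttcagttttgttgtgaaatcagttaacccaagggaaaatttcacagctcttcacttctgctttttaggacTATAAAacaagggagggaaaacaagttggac

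Most of the family gave little signal in hippocampus. Only 22 of the 134 probe sets (16.4%), of 20 genes, were analysed, against 50.0% of all probe sets, a share that the definition of the filter fixes. By gene these were 20 of 111, against 58.5% of 8251 named genes by their brightest probe set. A signal above the floor on all 4 arrays was found for 44 (32.8%), against 64.1% of all probe sets. A signal under the floor on all 4 arrays was found for 36 (26.9%), against 14.2% of all probe sets. The remaining 54 were above the floor on 1 to 3 arrays. Counted by gene, 27 of the 111 genes were under the floor on 4 of 4 arrays by every probe set that reads them.

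The genes under the floor held ligands and receptors. The interleukins there were Il1a and Il1b, which start fever and innate responses, Il6 of the acute phase, Il2 and Il13 of T cell responses, Il11, Il12a, Il17a and Il17d. The chemokines were Ccl2, Ccl5, Ccl7 and Ccl11, which attract monocytes, T cells and eosinophils, and Cxcl1, Cxcl9 and Cxcl13, which attract neutrophils, activated T cells and B cells. The growth factor Csf2, the TNF ligands Tnfsf4 and Tnfsf9, and the TNF-induced genes Tnfaip3 and Tnfaip6 were also under it. Receptors under the floor were Ccr4, Csf2rb, Il10ra, Il1rap, Il2ra and Il5ra. The highest signal that any probe set of these 27 genes reached was 26.1 units, for Il17a in sample 3. Some other inflammatory ligands were above the floor on 1 to 3 arrays. These included Tnf, Cxcl2, Cxcl10 and Ccl12 on 1 array each, Ccl3 on 2 and Ccl4 on 3.

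Roles differed in how many of their probe sets had a signal. Of 25 interleukin probe sets 12 (48.0%) were under the floor on all 4 arrays, against 5 of 28 (17.9%) for interleukin receptors. Of 14 probe sets for TNF receptors 11 (78.6%) were above the floor on all 4 arrays, against 0 of 6 for TNF ligands. Chemokine receptors had 0 of 13 analysed and 1 above the floor on all 4 arrays, Cxcr2. CC ligands had 1 of 15 analysed and CXC ligands 2 of 11. Colony-stimulating factors had 2 of 3 analysed and their receptors 2 of 7. These are counts of probe sets on this array and carry no test.

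**Figure D1:**
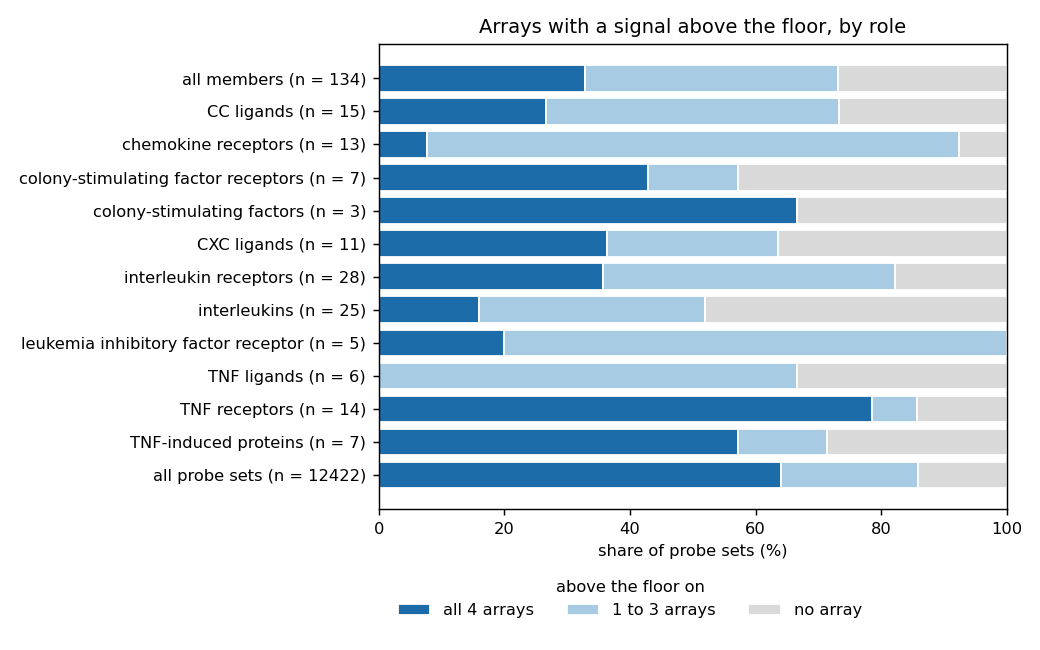
Share of probe sets (percent, x axis) with a signal above the floor of 27.7 units on all 4 arrays (dark), on 1 to 3 arrays (light) and on no array (grey), by role, with the number of probe sets in brackets. Above the floor on all 4 arrays were 78.6% of TNF receptor probe sets and 32.8% of all members, against 64.1% of all probe sets.

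Chemokine ligands above the filter were Cxcl14, Cxcl12 and Ccl22. Cxcl14, a chemokine of epithelia and of some interneurons, gave 325, 401, 256 and 369 units across samples 1 to 4 (338 ± 62.6, SD, n = 4). Cxcl12, which guides neural progenitors and blood stem cells through its receptor Cxcr4, gave 195, 260.0, 232 and 203 units (222 ± 29.8, SD, n = 4). Sample 2 was highest for each of these, and the ranges were 1.56-fold and 1.33-fold, or 0.64 and 0.42 log2 units, against a median of 0.53 over all analysed probe sets. Ccl22, known as a product of dendritic cells and macrophages that attracts T cells, gave 204.5, 281, 207 and 319 units (253 ± 56.7, SD, n = 4). Samples 1 and 3 lay close together, below samples 2 and 4, and the range was 0.64 log2 units. Receptors of these ligands were lower than the filter: Cxcr4, which was named after its values had been seen, gave 33.2, 44.5, 11.7 and 22.0 units, above the floor in samples 1 and 2 only. Ccr4, the receptor of Ccl22, was under the floor on all 4 arrays.

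Il6st, also called gp130, is the signalling chain shared by the receptors of interleukin 6, interleukin 27 and leukemia inhibitory factor. It was analysed by both of its probe sets, which gave 201, 231, 177 and 188 units and 117, 128, 85.8 and 95.3 units across samples 1 to 4. The order of the samples was the same in the pair, with sample 2 highest and sample 3 lowest. The interleukin 6 receptor chain Il6ra gave 65.6, 147, 152 and 85.2 units, a 2.31-fold range in which samples 2 and 3 lay above samples 1 and 4. Il27ra, which pairs with Il6st to bind interleukin 27, gave 428, 452.5, 417 and 536 units (458 ± 53.7, SD, n = 4). Lifr, which pairs with Il6st to bind leukemia inhibitory factor, gave 189, 217, 399 and 332 units by 1 of its 5 probe sets. Samples 3 and 4 lay above samples 1 and 2, and the range was 2.11-fold. Of the receptors named under other symbols that also pair with Il6st, Osmr gave 45.2, 77.7, 57.1 and 91.9 units and Cntfr gave 51.6, 9.4, 48.9 and 46.3 units, both below the filter. The ligands Il6 and Il11 were under the floor on all 4 arrays, with at most 17.8 units for Il6. The ligand Ctf1, which acts through Lifr and Il6st, was analysed, with 139, 84.8, 117 and 147 units, lowest in sample 2.

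Interleukin genes above the filter were Il18, Il16 and Il9. Il18, a relative of interleukin 1 that raises interferon gamma output, had the largest range of the analysed family, with 60.9, 193, 111 and 145 units across samples 1 to 4. This is a 3.17-fold range, lowest in sample 1, and without sample 1 it was 0.80 log2 units in place of 1.66. Il18r1 and Il18rap, the chains of its receptor, were each above the floor on some arrays and were not analysed. Il16, known as a chemoattractant for cells with CD4, had the smallest range, 1.11-fold, with 166, 153, 168 and 170.4 units. Il9, a growth factor of T cells and mast cells, gave 118, 150.5, 97.0 and 75.9 units. Microglia carry many cytokine genes, and 7 of 9 measured microglia markers were analysed, with a summed signal of 3387, 3459, 3123 and 3028 units across samples 1 to 4. Its defining markers C1qa, C1qb, C1qc and Cx3cr1 were above the filter, while Aif1 and Itgam were near the floor. The sum was highest in sample 2, as was Il18, but second highest in sample 1, where Il18 was lowest. The markers did not order the samples alike. C1qb gave 215, 436, 242 and 278 units across samples 1 to 4, lowest in sample 1, as was Il18. C1qa gave 665, 658, 564 and 434 units, highest in sample 1. The part of microglia in the values of Il18 was not tested. In tissue, fewer cells of a type and less RNA per cell cannot be told apart.

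Of the other interleukin receptors, 2 were analysed. Il10rb, the shared second chain of the interleukin 10 and related receptors, gave 182, 220.4, 189.6 and 143.5 units across samples 1 to 4. Il17ra, the interleukin 17 receptor, was analysed by a pair of probe sets that did not order the samples alike. The brighter probe set gave 180.4, 198, 215 and 189.6 units, a 1.19-fold range with sample 3 highest. The dimmer gave 143, 129, 103 and 76.35 units, a 1.88-fold range with sample 1 highest and sample 4 lowest.

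Colony-stimulating factors act on myeloid cells. Csf1, the growth factor that microglia depend on, was steady, with 233, 258, 279.5 and 238 units across samples 1 to 4 (252 ± 21.2, SD, n = 4). Csf3, the granulocyte factor, gave 137, 199, 220.9 and 287 units, a 2.10-fold range with sample 1 lowest and sample 4 highest. Without sample 1 its range was 0.52 log2 units in place of 1.07. Csf3r, the receptor for Csf3 on neutrophils, gave 472, 475.5, 515 and 916 units by 1 probe set. Sample 4 stood above samples 1 to 3, which lay within 0.12 log2 units of one another, and the whole range was 0.96 log2 units. Of the other Csf3r probe sets, 1 gave 21.7, 22.9, 65.7 and 41.6 units and 1 stayed under the floor throughout, so that the high sample 4 rests on a single probe set. Neutrophil markers beside it had a summed signal of 516, 825, 642 and 668 units across samples 1 to 4, with 3 of 7 analysed and S100a9 under the floor on all 4 arrays. The 3 analysed markers differed. Elane gave 136, 141, 179.9 and 268 units, highest in sample 4, as was Csf3r. Camp gave 132, 246, 162 and 83.3 units and Lcn2 gave 150.1, 157, 155 and 141 units, each lowest in sample 4. The part of neutrophils in the value of Csf3r was not tested. Csf2ra, the binding chain of the granulocyte and macrophage factor receptor, gave 220.3, 155, 184 and 101 units, a 2.18-fold range with sample 4 lowest. Without sample 4 that range was 0.49 log2 units in place of 1.12.

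Of the TNF family taken by symbol, 3 of 14 receptor probe sets and 0 of 6 ligand probe sets were analysed. Tnfrsf21, the death receptor 6 of neurons and oligodendrocyte lineage cells, gave 359.5, 398, 392 and 438 units across samples 1 to 4 (397 ± 32.3, SD, n = 4), a 1.22-fold range. Tnfrsf18, a receptor known from regulatory T cells, gave 109.8, 99.5, 158 and 161 units, with samples 3 and 4 above samples 1 and 2. Tnfrsf1a, the main receptor for TNF on most cells, gave 137, 154, 71.8 and 134 units by its brighter probe set. Sample 3 was lowest, the range was 2.14-fold, and without sample 3 it was 0.19 log2 units in place of 1.10. The other probe set of Tnfrsf1a gave 78.2, 84.0, 77.3 and 68.0 units, with sample 4 lowest, so that the low value in sample 3 was not shared by it. Tnfaip1, a TNF-induced adaptor of ubiquitin ligases, gave 167, 164, 90.1 and 99.8 units by its analysed probe set, with samples 1 and 2 above samples 3 and 4. Its other probe set gave 71.5, 30.8, 39.4 and 53.9 units and a different order. Tnf itself, named after its values had been seen, gave 13.6, 49.8, 18.7 and 13.5 units and was above the floor in sample 2 only. Of the 10 measured members of the family under other symbols, the ligands Lta and Eda and the receptor Ltbr were analysed. The ligands Ltb, Fasl, Cd40lg and Cd70 and the receptors Fas, Cd40 and Cd27 were not.

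**Figure D2:**
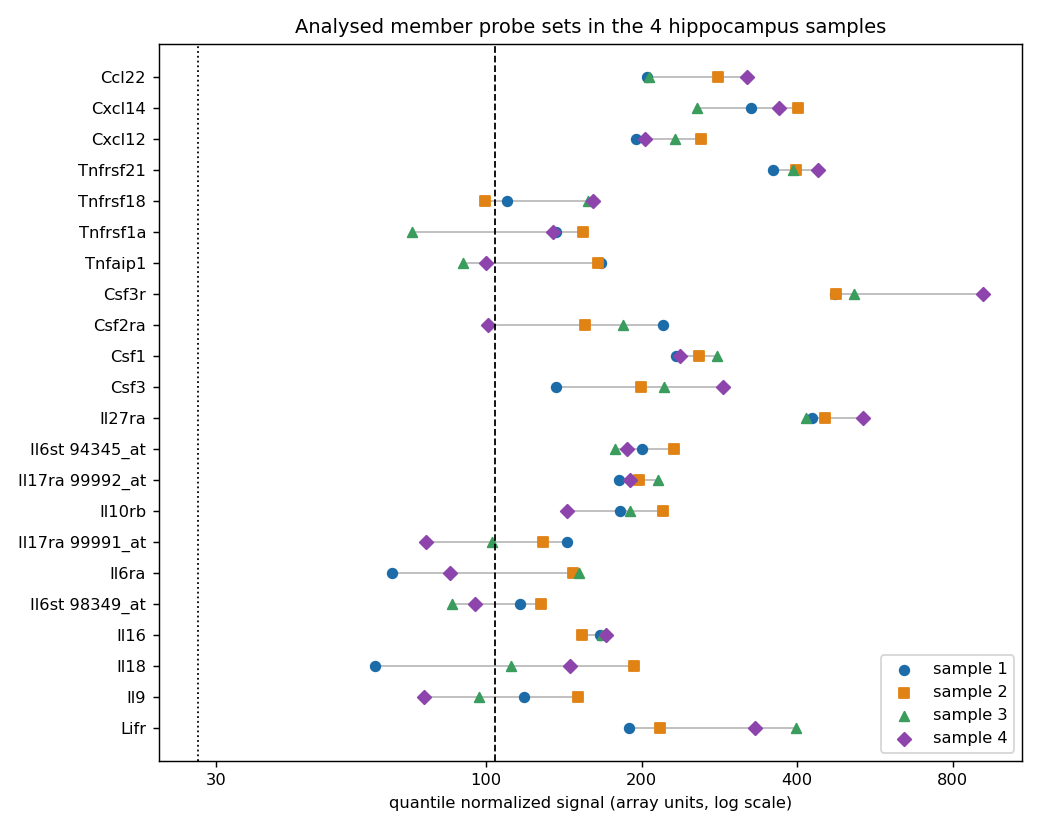
Signal of the 22 analysed probe sets of the family in each of the 4 hippocampus samples (x axis, quantile normalized array units on a log scale), grouped by role, with 1 marker shape and colour per sample and a grey line from the lowest to the highest sample. The dotted line is the floor of 27.7 units and the dashed line the filter of 104 units. Il18 spans the widest interval and Il16 the narrowest, and Csf3r in sample 4 lies furthest to the right at 916 units.

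Below the filter, 8 probe sets reached 4 times the floor (110.7 units) on 1 or more arrays. Il15ra, the interleukin 15 receptor chain, gave 128, 31.3, 24.8 and 53.2 units across samples 1 to 4, at least a 4.61-fold range with sample 1 highest. Without sample 1 its range was 0.95 log2 units in place of 2.21, and with the floor at the 40th percentile it was 1.01. Ccl6, a chemokine of rodent myeloid cells, gave 61.0, 58.1, 127 and 31.0 units, highest in sample 3, and the lowest value lay close to the floor. Its range was 2.03 log2 units, against 0.98 without sample 3, 1.09 without sample 4 and 1.00 with the floor at the 40th percentile. Ccl1, a T cell chemokine, gave 42.1, 125, 135 and 57.0 units, and its other probe set was also highest in sample 3. Tnfrsf11a, the receptor of the osteoclast factor Tnfsf11, gave 71.2, 102, 133 and 63.3 units. Samples 2 and 3 were above samples 1 and 4 for each of Ccl1 and Tnfrsf11a. The interleukin 1 receptor Il1r1 gave 86.4, 59.5, 91.0 and 125 units, and the TNF receptor Tnfrsf1b gave 73.8, 102, 71.0 and 114 units. Csf2rb2 gave 121, 94.0, 80.7 and 101 units. Its other probe set gave 15.0, 27.25, 1.3 and 3.0 units, under the floor on all 4 arrays. Csf2rb2 is a near copy of Csf2rb, which gave no signal above the floor, so reads of the pair are uncertain. The eighth was a further probe set of Cxcl12, with 83.8, 73.1, 128 and 83.2 units.

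Genes read by several probe sets showed how far a value depends on the probe set. Of 16 such genes, 7 had an analysed probe set, and in 5 of these 7 another probe set of the gene fell below the filter. For Csf3r 1 of 3 probe sets passed the filter and 1 was under the floor on all 4 arrays. For Lifr 1 of 5 passed it, and the other 4 were each above the floor on 1 or 2 arrays. Among those 4, sample 4 reached 103 units by 1 probe set and lay under the floor by the other 3. The 3 probe sets of Cxcl12, of which 1 passed the filter, were highest in samples 2, 3 and 4 in turn. Controls of the array design for Il10 gave 60.1, 19.7, 17.2 and 26.3 deposited units across samples 1 to 4, and that for Il4 gave 7.3, 25.8, 30.2 and 30.5 units.

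**Figure D3:**
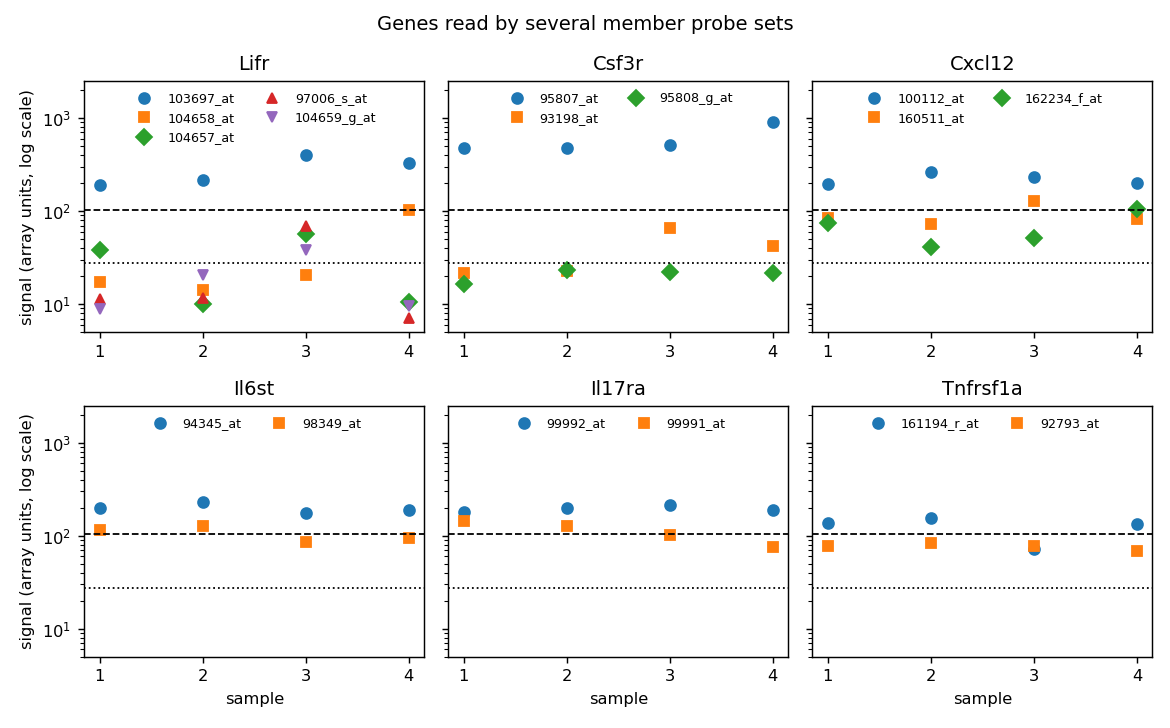
Signal (y axis, array units on a log scale) in samples 1 to 4 (x axis) of every member probe set of 6 genes, 1 marker per probe set, with the floor of 27.7 units dotted and the filter of 104 units dashed. For Lifr and Csf3r 1 probe set lies far above the others, while the pair for Il6st runs in parallel.

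No member passed the variance test. The variance of each analysed probe set was tested against the intensity trend of the variance over all 6210 analysed probe sets (limma, one-sided F test, Benjamini-Hochberg adjustment at 0.05). The call rate was 0% over all probe sets (0 of 6210) and 0 of 22 in the family, whose smallest adjusted p was 0.898, for Csf3r. An unadjusted p under 0.05 was found for 0 of 22 members, against 5.62% of all analysed probe sets. The smallest unadjusted p was 0.0603 for Csf3r and 0.0867 for Lifr. Members that spanned 2-fold or more numbered 6 of 22 (27.3%), against 15.2% of all analysed probe sets. It was 18.5% of the 4550 analysed probe sets whose mean lay within that of the analysed members, 106 to 595 units. The 6 were Il18, Il6ra, Csf2ra, Tnfrsf1a, Lifr and Csf3. Sample 1 was lowest for Il18, Il6ra, Lifr and Csf3. The count was 2 without sample 1, 3 without sample 3 and 4 without sample 4. Of the genes described above, Il27ra, Il10rb, Tnfrsf21 and Il1r1 also lost range without sample 4, to 0.12, 0.27, 0.14 and 0.58 log2 units, in place of 0.36, 0.62, 0.29 and 1.07. Such losses were not particular to sample 4. Without sample 2 the range of Il1r1 was 0.54 and that of Il6st 0.18. It was 0.16 for Tnfrsf21 without sample 1 and 0.31 for Cxcl14 without sample 3. The median range was 0.67 log2 units in the 22, against 0.53 over all analysed probe sets and 0.59 within that interval of means.

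**Figure D4:**
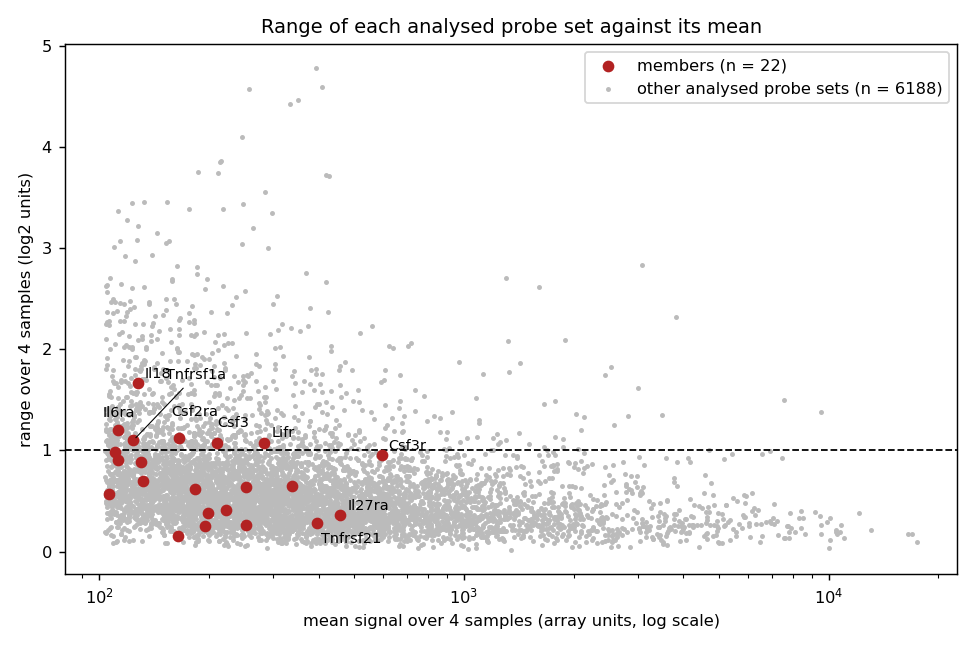
Range over the 4 samples (y axis, log2 units) against mean signal (x axis, array units on a log scale) for the 22 analysed members (red) and the 6188 other analysed probe sets (grey), with a dashed line at a 2-fold range. The members lie at the low-signal end, with means from 106 to 595 units, and 6 are above the line.

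The family did not lean strongly to any sample. The median log2 signal of the 22 members relative to the mean of the other 3 samples was -0.13, 0.27, -0.06 and 0.01 in samples 1 to 4. Over all analysed probe sets the same medians lay between 0.01 and 0.02. Members above the others numbered 9, 15, 10 and 11 of 22 in samples 1 to 4. The highest sample was sample 2 for 8 of 22 members (36.4%), against 21.6% of all analysed probe sets, and sample 4 for 7 (31.8%), against 31.1%. With 1 probe set per gene the median in sample 2 was 0.14, and a filter of 3 arrays above the floor made it 0.01. Among the 54 members above the floor on 1 to 3 arrays, the highest was sample 3 for 20 (37.0%), against 24.4% of 2672 such probe sets that were below the filter in all. Members above the floor numbered 65, 62, 74 and 66 of 134 in samples 1 to 4, against 75.0% of all probe sets in each.

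Signalling genes that act behind or beside the family were read more often than the family itself. The list held 94 genes, of which 77 were measured and 38 analysed (49.4%), against 58.5% of all named genes by their brightest probe set. The variance test called 0 of the 38, and 2 had an unadjusted p under 0.05. Those that spanned 2-fold or more numbered 9 (23.7%), against 13.4% of all analysed named genes, and the median range was 0.63 log2 units. Of 18 JAK-STAT genes 11 were analysed. The receptor kinase Jak1 gave 623, 477, 678 and 709 units across samples 1 to 4, and Stat3, the main factor behind Il6st, gave 488, 651, 533 and 507 units, highest in sample 2. The kinase Tyk2 gave 73.6, 160.1, 152 and 68.75 units and the feedback inhibitor Cish gave 75.8, 164, 106 and 148 units. Tyk2 followed the split seen for Il6ra, with samples 2 and 3 above samples 1 and 4.

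In the NF-kappaB pathway 11 of 20 measured genes were analysed. Rela, a subunit of NF-kappaB, hardly varied, with 732, 649, 673 and 681 units across samples 1 to 4. Its inhibitor Nfkbia gave 262, 330.0, 394 and 519.6 units, highest in sample 4, and the inhibitor kinase Ikbkb gave 162, 133, 102 and 52.6 units, lowest in sample 4. Without sample 4, an alternative chosen after the data had been seen, the range of Ikbkb was 0.66 log2 units in place of 1.63. The TNF receptor adaptor Tradd gave 114, 119, 416 and 233 units, with samples 3 and 4 above samples 1 and 2. Of 10 measured TNF family genes under other symbols 3 were analysed. The ligand Lta gave 213, 250.5, 153.5 and 390.2 units, and without sample 4 its range was 0.69 log2 units in place of 1.35. The ligand Eda gave 139, 121, 145 and 104 units and the receptor Ltbr gave 115, 136, 166 and 149 units. The ligand Cd70 was above the floor on all 4 arrays, with 115, 33.2, 103 and 94.0 units, and the receptor Cd40 in samples 1 and 4 only. Fas, Fasl and Cd40lg were under the floor on all 4 arrays.

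Among related ligands and receptors 8 of 18 were analysed. Kit, the stem cell factor receptor, gave 425, 291, 344 and 372 units across samples 1 to 4, and the receptor kinase Flt3 gave 392, 363, 367 and 351 units. Ifnar1 and Ifngr2, chains of the interferon receptors, gave 179, 165, 153 and 76.0 units and 273, 260.4, 126 and 254 units. Ifnar1 was lowest in sample 4, and without that sample its range was 0.22 log2 units in place of 1.24. Ifngr2 was lowest in sample 3, and without it the range was 0.10 in place of 1.11.

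Of 11 measured chemokine genes under other symbols 5 were analysed. The neuronal chemokine Cx3cl1 gave 6354, 5705, 5337 and 5253 units across samples 1 to 4 (5662 ± 501, SD, n = 4), a 1.21-fold range. Its microglial receptor Cx3cr1 gave 308, 320, 244 and 236 units. The G protein subunit Gnai2, through which chemokine receptors signal, gave 4268, 3906, 4560.0 and 4691 units. Arrb1, an arrestin that silences such receptors, was lowest in sample 4 at 327 units, against 588, 603 and 678 units in samples 1 to 3, and without sample 4 its range was 0.21 log2 units in place of 1.05. Ackr1, a chemokine-binding protein of red blood cells and venules, gave 131, 219, 35.7 and 147 units, a 6.13-fold range with sample 3 lowest. Without sample 3 that range was 0.74 log2 units in place of 2.61. Erythroid markers, 4 of 5 measured and all 4 analysed, had summed signals of 14231, 11126, 4652 and 8739 units, also lowest in sample 3. The summed signal of endothelial markers, with 3 of 6 analysed, was lowest there too, with 921, 766, 654 and 707 units. Each sum was highest in sample 1, whereas Ackr1 was highest in sample 2. The erythroid markers differed among themselves. Alas2 gave 209.7, 237, 36.6 and 152 units, highest in sample 2 and lowest in sample 3, as was Ackr1. Klf1 gave 107, 80.8, 126.5 and 112 units, highest in sample 3. The analysed endothelial markers differed too. Flt1 gave 210, 187, 147 and 162 units and Pecam1 gave 114, 113, 80.8 and 168 units, each lowest in sample 3. Cldn5 gave 446, 260, 261 and 185 units, lowest in sample 4. The part of erythroid or endothelial cells in the value of Ackr1 was not tested.

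The tissue label was checked against markers. Neuronal and hippocampal markers were analysed in 6 of 7 cases and had summed signals of 18464, 17015, 17319 and 15593 units across samples 1 to 4. These sums rest mostly on Snap25 and Camk2b. Prox1 was not analysed and gave 64.1, 27.35, 108.6 and 16.7 units, under the floor in samples 2 and 4. Syt1 gave 2040, 1160, 718 and 605 units. Its unadjusted p was 0.0046 and its adjusted p 0.55 (limma variance test), so that it was not called. T cell markers were analysed in 1 of 6 cases, Cd4, and Cd3d, Cd3e and Cd3g were at or near the floor. B cell markers were analysed in 3 of 4 cases with a summed signal of 450.3, 395, 385 and 328 units. No marker of tissue that adjoins the hippocampus was called by the variance test. Choroid plexus markers, all 3 of them analysed, had summed signals of 2955, 1584, 1104 and 2196 units, with sample 3 lowest. The defining choroid plexus marker Ttr gave 2630, 1236, 954 and 1820 units (unadjusted p under 0.05, adjusted p 0.61, limma variance test). Folr1 also had an unadjusted p under 0.05 (adjusted p 0.84, limma variance test) but lay under the floor in sample 3. Meningeal markers, all 3 analysed, had summed signals of 2054, 1651, 2151 and 2353 units. Among them Dcn had an unadjusted p under 0.05 (adjusted p 0.695, limma variance test). Over all analysed probe sets 5.62% had an unadjusted p under 0.05. The part of either tissue in the values of the family was not tested.

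Promoters of the genes with a signal had a higher median number of CG dinucleotides than those of genes under the floor. The RefSeq table held a promoter for 16 of the 20 analysed genes and 19 of the 27 genes under the floor, and the start listed first was used. The genes in between were all family genes neither analysed nor under the floor on every array by every probe set. Some of them, such as Il1r1, were above the floor on all 4 arrays but below the filter. The median number of CG in the 250 bases before the start was 11 for the analysed genes, 4 for the genes in between and 3 for those under the floor. For all 6573 matched genes on the array it was 14, and over all 27018 genes in the promoter table it was 6. The median share of bases that are G or C was 57.8% for analysed genes, 50.0% in between and 46.0% under the floor. At least 10 CG, a threshold chosen after the values had been seen, were held by 9 of 16 analysed promoters (56.2%). Under the floor they were held by 4 of 19 (21.1%), against 66.1% for the array and 38.2% for the promoter table. The values ranged widely, from 1 for Il18 to 43 for Lifr among analysed genes, and from 1 to 30 among genes under the floor, where Il1rap had 30. No test was made, since the genes were not sampled independently.

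Motif matches were counted in the same windows on both strands. TATAAA was found in 1 of 16 analysed promoters (6.25%), that of Il18, and in 8 of 19 under the floor (42.1%), against 9.33% of all genes on the array. TATAAA between 45 and 16 bases before the start, on the strand of the gene, was found in 0 of 16 analysed promoters and in 5 of 19 under the floor, those of Il13, Il17a, Il1a, Il1b and Il2, against 3.13% for the array. TGANTCA, the AP-1 site, was found in 2 of 16 (12.5%) and 7 of 19 (36.8%), against 5.45%. The kappaB consensus was found in 2 of 16 (12.5%) and 4 of 19 (21.1%), against 5.78%. Over all 27018 genes in the promoter table the shares were 13.0% for TATAAA, 6.87% for TGANTCA and 4.79% for the kappaB consensus. A match is only a match of letters.

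**Figure D5:**
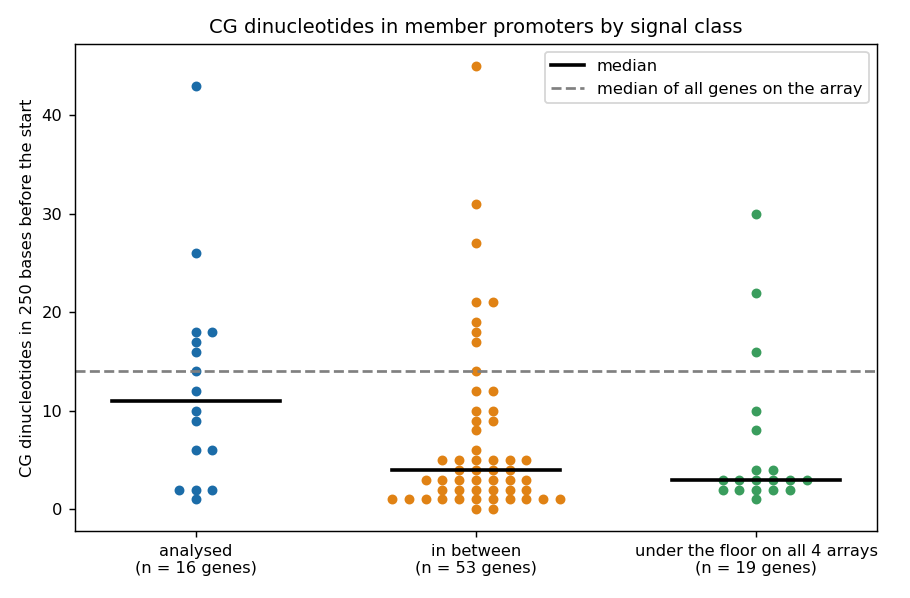
Number of CG dinucleotides in the 250 bases before the RefSeq start (y axis) for genes of the family by signal class (x axis: 16 analysed genes, 53 in between, 19 under the floor on all 4 arrays), 1 point per gene, with the class median as a black line and the median of all genes on the array, 14, as a dashed line. The medians are 11, 4 and 3, and the classes overlap.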

How the data were processed

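Total RNA of 4 mouse hippocampus samples was measured on 1 array each. The deposited file holds intensities on a linear scale, never below 0, and the software that made them is not given in the sources used here. The deposited intensities of each array had a mean of 250.1 units after leaving out the lowest and highest 2%, a shared scale set before deposit. The 66 controls were dropped and the rest quantile normalized (limma 3.58.1, R 4.3.3). Values were floored at the 25th percentile and taken to log2. The 6210 of 12422 probe sets whose mean exceeded the median mean were analysed. A range is the highest over the lowest floored signal.

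The variance test used a robust intensity trend, with 3 residual and 5.06 prior degrees of freedom, and was tested on simulated data. Its p-values measure only the spread between these samples, which may be technical. The members and lists were chosen with earlier results of these data known. Probe sets of several genes with a matching symbol, 8 in number, were not used. A gene of the signalling and marker lists was read from its brightest probe set. Named genes were, per role, the 2 analysed genes with the highest mean and the 2 with the largest range, the 10 largest ranges, genes with 2 analysed probe sets, and probe sets below the filter with an array at 4 times the floor; for each group of signalling genes, 2 and 2 by the same measures. Cxcr4, Tnf, Cx3cr1, Osmr, Cntfr, Ctf1, Eda, Cd70 and Cd40 were added after values had been seen. So were the markers given with their own values and the genes named only by their class. Promoter sequences and gene symbols come from RefSeq, GRCm38.p6. Alternatives covered normalization, floor, filter, variance test, probe sets per gene and each sample left out.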

Additional observations from a re-analysis of the deposited data

Results flagged for a closer look

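Csf3r was the only 1 of 29 probe sets tested that passed Dixon's test for 1 sample apart from the other 3. The gap between sample 4 and the nearest other sample was 0.870 of the whole range on the log2 scale, above Dixon's 95% critical value for 4 samples. The signals were 472, 475.5, 515 and 916 units in samples 1 to 4. By the same measure the brighter probe set of Tnfrsf1a, with sample 3 lowest, was just under the critical value, at 0.823. Chance marks about 1 in 20 such groups, so that 1 of 29 is no more than chance would give. The test covered member probe sets above the floor on all 4 arrays that were analysed or reached 4 times the floor.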

How the results depend on the processing

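The variance test called 0 probe sets and 0 members under each alternative run, with a smallest adjusted p between 0.115 and 0.900 over all probe sets and between 0.467 and 0.974 over the members (limma). Members above the floor on all 4 arrays numbered 91 with a floor at the 10th percentile and 26 at the 40th, in place of 44. A filter of 3 arrays above the floor kept 55 members in place of 22. Members with a range of at least 2-fold numbered 23 with that filter and 32 with no filter, in place of 6, since more probe sets of low signal entered, and 2 to 4 with 1 sample left out. Median scaling and the deposited intensities each gave 8. Of 99 recomputed values over the members 7 moved, and of 216 recomputed ranges of named genes 21 moved by more than 1 SD between samples. No paired analysis was possible because all samples form 1 group. Low signal limits most of the family, since a value near the floor has no order.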

Other observations

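Neighbouring genes of the family were compared by signal class, with neighbours taken as members with at most 2 other protein-coding genes between them in RefSeq order. On chromosome 11 the 11 CC ligand genes in 2 such groups held 0 analysed genes, against 20 of 111 in the family, with 4 under the floor on all 4 arrays and 7 in between. On chromosome 9 the receptors Ccr1, Ccr1l1, Ccr3 and Ccr2 held 0 analysed genes, and on chromosome 1 the receptor genes Il1r2, Il1r1, Il18r1 and Il18rap also held 0, all 8 in between. Cxcl14 and Il9 on chromosome 13 were the only neighbours with each gene analysed. Ccl22 and Ccl17 on chromosome 8 differed, with Ccl22 analysed and Ccl17 above the floor in sample 4 only, at 28.2 units. These are values with no test.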
